A study of Mus musculus with 2 samples.

Results

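The genes described here are 10 ligands and receptors through which testicular cells signal to one another, namely Gdnf, Kitl, Kit, Cxcl12, Cxcr4, Csf1, Csf1r, Dhh, Ptch1 and Amhr2. They were chosen by symbol, and all 10 were found among the 41459 genes of the deposited matrices. Their transcripts were counted in single cells of whole testes from male mice aged 55 days, of the genotypes Rad21l+/+ (WT) and Rad21l-/- (RAD21L KO). RAD21L is a cohesin subunit of meiotic germ cells. Cells were captured on the 10x Chromium system, and each transcript carried a unique molecular identifier (UMI), so that each count is 1 captured molecule. There was 1 library per genotype, and the labels give neither the number of animals behind a library nor the part of the Rad21l gene that is lacking. No test across animals was therefore possible. All intervals below are exact 95% intervals that cover counting error alone.

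These genes form 5 ligand and receptor systems and 1 receptor. GDNF is secreted by Sertoli and peritubular myoid cells, and acts through RET and GFRA1 on the undifferentiated spermatogonia that include the stem cells. KIT ligand (Kitl) from Sertoli cells acts on KIT, which appears as spermatogonia begin to differentiate and is also carried by Leydig cells. CXCL12 attracts and retains cells that carry CXCR4. CSF1 sustains macrophages through CSF1R. Desert hedgehog (Dhh) from Sertoli cells is received by PTCH1 on interstitial and peritubular cells, and Ptch1 is itself a target gene of the pathway. AMHR2 is the type II receptor of anti-Müllerian hormone and is carried by Sertoli and Leydig cells.

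The WT library held 33096309 UMIs in 5415 barcodes, and the KO library held 28001992 UMIs in 7118 barcodes, with 14 barcode sequences in both. Filters kept 5400 WT and 6255 KO cells, whose median depths were 2230.5 and 3429 UMIs. Cells were grouped into classes by marker genes that did not include these 10, so class names carry "-like". The KO library held 1110 Sertoli-like, 732 Leydig-like, 680 interstitial stromal-like, 383 myeloid-like, 98 peritubular myoid or smooth muscle-like, 73 endothelial-like, 902 spermatogonia-like and 532 early meiotic prophase-like cells. Median depths in these KO classes, in the same order, were 7012.5, 7187, 2068, 2590, 2514, 3270, 5525 and 4147 UMIs. None of the 6 somatic classes had a marker of its own at 0. Another 1722 KO cells, with a median of 960 UMIs, stayed unnamed for too few UMIs, and 23 were lymphocyte-like. The WT library was 75.1% spermatid-like and held 37 Sertoli-like cells and 7 or fewer of each other somatic class. A further 614 WT cells carried markers of 2 lineages and were left unnamed. Rad21l itself, in early prophase-like cells, had 43 UMIs in WT, a level of 91.9 CPM (66.5 to 124), and 56 UMIs in KO, a level of 22.2 CPM (16.7 to 28.8), so some Rad21l transcript was counted in the KO library.

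Levels are given as CPM, the UMIs of a gene in a class scaled to a fixed total for all UMIs of that class. Shares of cells with a UMI are given as counted and after each cell was thinned to 2000 UMIs, which left out cells below that depth (311 stromal-like, 95 myeloid-like, 36 Leydig-like, 19 early prophase-like, 15 spermatogonia-like and 0 Sertoli-like cells). In the KO library each gene had its highest level in 1 of 5 classes. Amhr2, Dhh and Gdnf were highest in Sertoli-like cells, Kitl, Csf1 and Ptch1 in stromal-like cells, Csf1r and Cxcr4 in myeloid-like cells, Kit in Leydig-like cells and Cxcl12 in endothelial-like cells. For 5 of the 10 genes (Cxcr4, Csf1r, Dhh, Ptch1 and Amhr2) the highest of the 8 classes exceeded the next by at least 2-fold. Of the 17102 genes with at least 20 UMIs, 19.2% did so. The median ratio of highest to next class was 2.02 over the 10 genes and 1.25 over all genes. The 10 genes had from 185 (Gdnf) to 15184 UMIs (Amhr2) in kept KO cells, while all genes needed only 20. Very low counts in a class were raised to a floor, which lowers the ratio of genes with few UMIs. The values over all genes are thus not a background of like counts. With a minimum of 50 UMIs, 21.2% of all genes passed. The endothelial-like class, which also carried transcripts of other classes, was the next class for 4 of the 5 genes past 2-fold. With that class left out, 5 of the 10 genes and 33.9% of all genes passed.

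**Figure D1:**
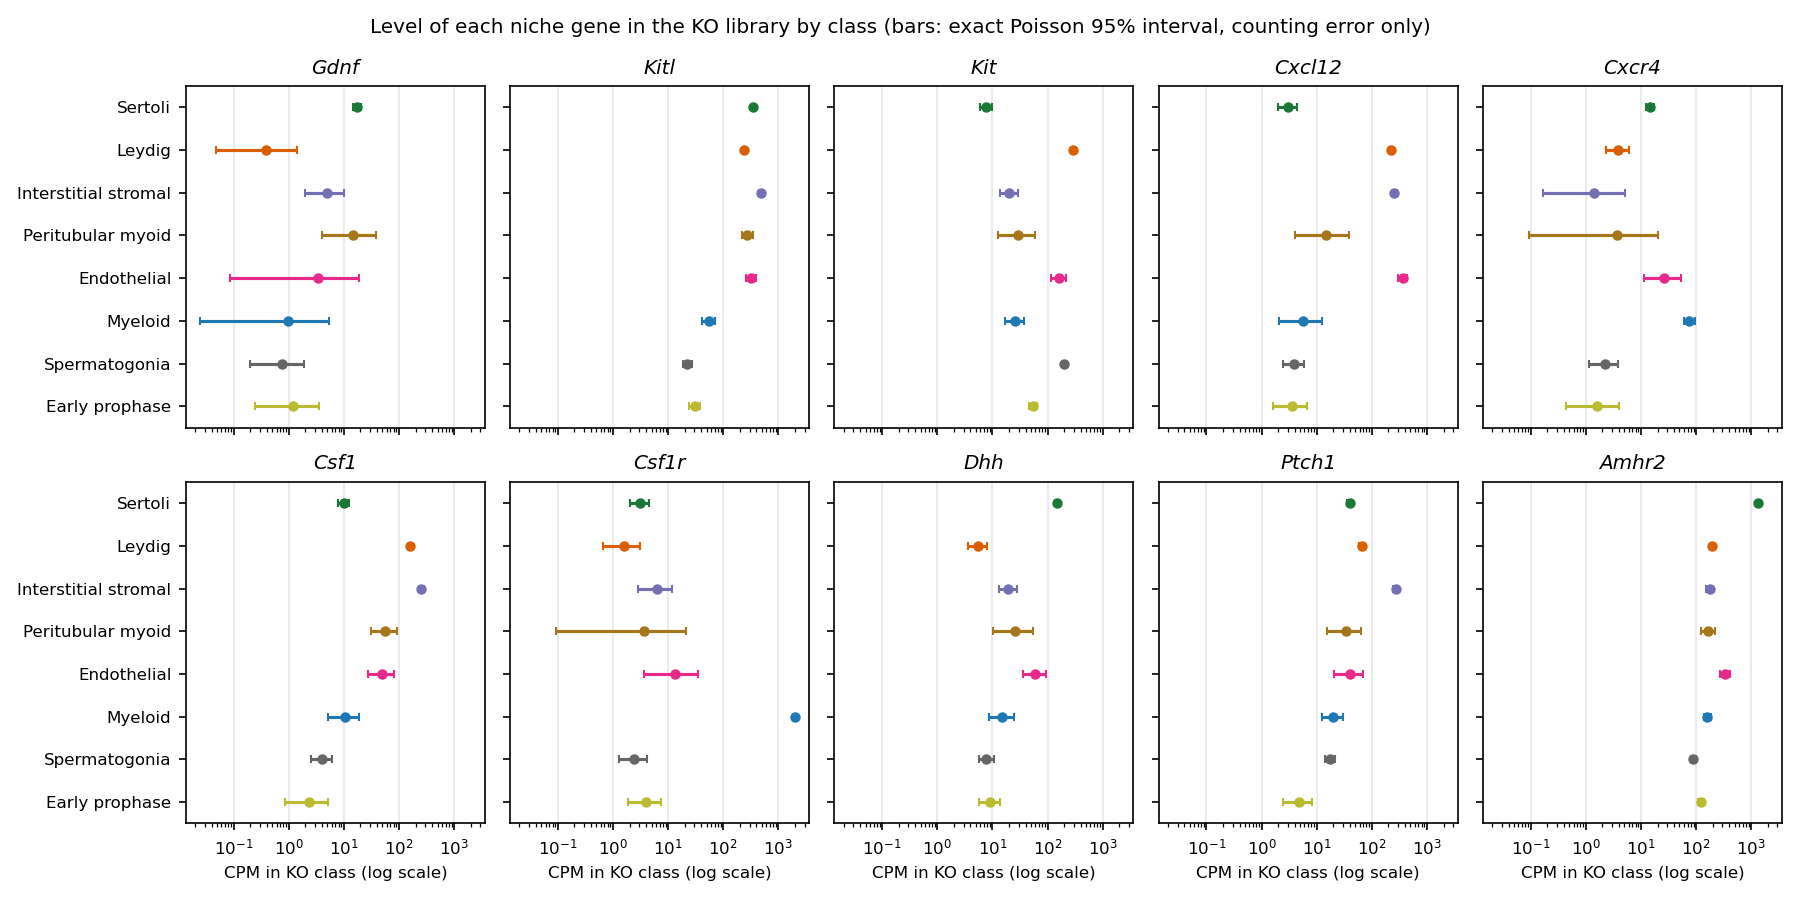
Each panel plots the level of 1 gene in CPM on a log axis for 8 classes of the KO library, with exact Poisson 95% intervals as bars. Csf1r stands far above its other classes in myeloid-like cells (1967 CPM), while Kitl lies between 241 and 482 CPM in 5 somatic classes.

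The 3 genes that were highest in Sertoli-like cells are shown first, with the 250 bases upstream of an annotated start for each. These are RefSeq sequences on the GRCm38.p6 build, written 5′ to 3′ on the gene's strand. They lie at chr15:102445117-102445366 (plus strand) for Amhr2, chr15:98898541-98898790 (minus strand) for Dhh and chr15:7809798-7810047 (plus strand) for Gdnf, for which the first of 2 annotated starts is shown. Capitals mark matches to 4 short motifs: the TATA box, spelled TATAAA and searched on the gene's strand only, and on both strands the GC box, spelled GGGCGG, the motif of the steroidogenic factor SF-1, spelled AAGGTCA, and the motif of GATA factors, spelled AGATAA.
Amhr2: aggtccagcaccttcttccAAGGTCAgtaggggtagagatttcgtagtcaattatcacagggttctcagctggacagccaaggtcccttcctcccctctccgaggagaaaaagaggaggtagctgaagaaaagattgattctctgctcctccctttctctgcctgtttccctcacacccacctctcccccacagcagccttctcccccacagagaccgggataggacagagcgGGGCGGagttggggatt
Dhh: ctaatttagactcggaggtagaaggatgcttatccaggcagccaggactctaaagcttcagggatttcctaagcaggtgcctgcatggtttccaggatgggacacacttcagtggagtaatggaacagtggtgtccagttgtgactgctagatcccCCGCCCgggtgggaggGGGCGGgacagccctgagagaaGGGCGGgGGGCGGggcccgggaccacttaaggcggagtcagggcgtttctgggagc
Gdnf: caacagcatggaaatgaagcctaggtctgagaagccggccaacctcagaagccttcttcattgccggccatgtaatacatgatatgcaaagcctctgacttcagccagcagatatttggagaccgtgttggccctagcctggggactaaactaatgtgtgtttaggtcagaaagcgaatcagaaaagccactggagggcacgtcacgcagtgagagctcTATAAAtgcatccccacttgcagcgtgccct
The Amhr2 window held an SF-1 motif and a GC box, the Dhh window held 4 GC boxes and no TATAAA, and the Gdnf window held a TATAAA and no GC box. Among 32841 mouse promoter windows of the same length, 4.08% held the SF-1 motif, 32.7% a GC box, 7.59% a TATAAA and 9.99% the GATA motif. Among the 9 genes with a window kept, Amhr2 was the only one with the SF-1 motif, and 8 had a GC box. A match is a string of letters and not a shown binding site.

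Amhr2 was found in nearly all Sertoli-like cells. It was at 1325 CPM (1301 to 1349.5) in KO Sertoli-like cells and at 1489.7 CPM (1366 to 1622) in the 37 WT Sertoli-like cells. An Amhr2 UMI was found in 99.3% of KO Sertoli-like cells, and in 90.4% when thinned. In KO early prophase-like cells, a class that should lack it, the share was 40.04%, or 22.6% when thinned. The class next to Sertoli-like was endothelial-like, at 333 CPM (271 to 405), a level 3.98-fold lower (3.27 to 4.89). Leydig, stromal, myoid and myeloid-like cells followed between 159.9 and 195 CPM, and neighbours in that order did not differ beyond counting error. Unnamed KO cells were at 761 CPM (723 to 800.5), and their Sertoli markers had a median of 65.3% of the Sertoli-like level.

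Amhr2 outside Sertoli-like cells was set beside the 20 Sertoli markers, each expressed as a percent of its own Sertoli-like level. In stromal-like cells Amhr2 was at 13.2% of its Sertoli-like level and the markers had a median of 13.9%. In myeloid-like cells the values were 12.1% and 12.3%, in endothelial-like cells 25.1% and 28.5%, and in myoid-like cells 12.6% and 15.3%. The Amhr2 level in these classes was thus close to the share of Sertoli transcripts found there. In Leydig-like cells Amhr2 was at 14.7%, above the marker median of 6.47% but within the markers' range of 3.26 to 377%. The top of that range came from a marker that was higher in Leydig-like than in Sertoli-like cells. In the 7 WT Leydig-like cells Amhr2 was at 180.4 CPM (90.1 to 323, from 11 UMIs), which was 12.1% of the WT Sertoli-like level, while 9 of the 20 Sertoli markers were at 0 and the median was 0.616% (0 to 34.5).

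Dhh, the hedgehog ligand of the seminiferous tubule, followed the same class. It was at 147 CPM (139 to 155) in KO and 146 CPM (109 to 191) in WT Sertoli-like cells. KO Sertoli-like cells held 81.2% of all Dhh UMIs of that library, and 63.4% of them had a Dhh UMI (27.8% when thinned). The share was 3.95% (1.75% when thinned) in early prophase-like cells. The endothelial-like class came next at 60.0 CPM (35.5 to 94.8, from 18 UMIs), a 2.45-fold difference (1.54 to 4.15). This was 40.8% of the Sertoli-like level, where the Sertoli markers had a median of 28.5% and a range of 9.10 to 126%. In the remaining classes Dhh ranged from 5.44 CPM (3.61 to 7.86) in Leydig-like to 26.01 CPM (10.5 to 53.6) in myoid-like cells. No neighbours in this order differed beyond counting error, but the intervals of the lowest and highest did not overlap.

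Gdnf, the growth factor of spermatogonial stem cells, was sparse. Only 185 Gdnf UMIs were found in kept KO cells, and 81.1% of them were in Sertoli-like cells. The level there was 17.6 CPM (14.9 to 20.7), with a UMI in 12.2% of cells (3.69% when thinned), against 0.564% (0.390% when thinned) in early prophase-like cells. In myoid-like cells it was 14.9 CPM, but this rested on 4 UMIs (4.05 to 38.1), so the order of the 2 classes could not be told at this depth (ratio 1.18, 0.453 to 4.40). The myoid level was 84.4% of the Sertoli-like level, above the highest of the Sertoli markers in that class (33.0%). WT Sertoli-like cells had 1 Gdnf UMI, or 2.81 CPM (0.0710 to 15.6).

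**Figure D2:**
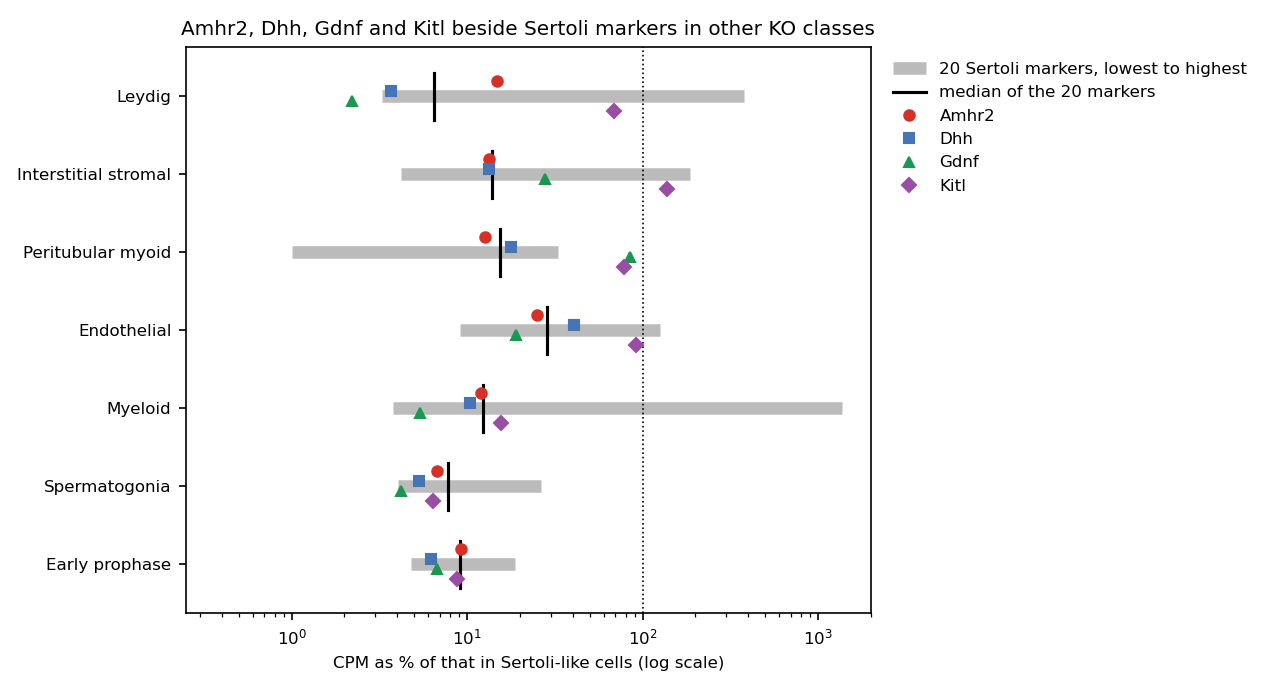
For 7 other KO classes, the log axis gives the CPM of Amhr2, Dhh, Gdnf and Kitl as a percent of the Sertoli-like level, over a grey bar for the range and a black line for the median of 20 Sertoli markers (a marker at 0 is not drawn). Amhr2 lies near the black line in most classes, whereas Kitl reaches 138% in stromal-like cells.

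Kitl and Kit form a ligand and receptor pair whose transcripts were both high in the interstitium. The upstream windows of the pair are shown in the same way, at chr10:100015571-100015820 (plus strand) for Kitl and, from the first of 2 annotated starts, at chr5:75574737-75574986 (plus strand) for Kit.
Kitl: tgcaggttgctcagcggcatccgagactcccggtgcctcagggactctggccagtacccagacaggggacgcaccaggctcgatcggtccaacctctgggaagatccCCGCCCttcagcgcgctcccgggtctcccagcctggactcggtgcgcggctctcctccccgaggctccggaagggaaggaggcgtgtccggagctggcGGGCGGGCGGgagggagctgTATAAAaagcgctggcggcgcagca
Kit: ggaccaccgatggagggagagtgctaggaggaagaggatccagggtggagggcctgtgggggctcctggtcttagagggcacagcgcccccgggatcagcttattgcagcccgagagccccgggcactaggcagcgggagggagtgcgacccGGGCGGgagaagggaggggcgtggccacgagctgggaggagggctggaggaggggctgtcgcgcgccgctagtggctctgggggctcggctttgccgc
The Kitl window held a TATAAA and 3 GC boxes, some overlapping, and the Kit window held 1 GC box and no TATAAA. Their GC contents were 69.2% and 70.8%, where the median over all windows was 52.4%.

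Kitl was broadly present in somatic classes. It was highest in stromal-like cells at 482 CPM (447 to 519.7), 1.38-fold above Sertoli-like cells (1.27 to 1.501). Sertoli-like cells were at 349 CPM (337 to 362), endothelial-like cells at 319.8 CPM (259 to 391), myoid-like cells at 275 CPM (216 to 345) and Leydig-like cells at 241 CPM (228 to 255). From Sertoli-like to Leydig-like cells, no neighbours in this order differed beyond counting error, but the intervals of the first and last did not overlap. After Leydig-like cells the level dropped 4.44-fold (3.40 to 5.89) to 54.3 CPM in myeloid-like cells, and spermatogonia-like cells were lowest at 22.4 CPM. Sertoli-like cells held 52.0% of the Kitl UMIs, and Leydig-like cells held 21.7%. Thinned to 2000 UMIs, a Kitl UMI was found in 56.1% of stromal-like, 48.1% of Sertoli-like and 39.8% of Leydig-like cells, against 6.43% of early prophase-like cells. Unthinned shares were 56.2%, 87.8%, 74.5% and 13.3%.

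As a percent of its Sertoli-like level, Kitl was at 138% in stromal-like cells, where the 20 Sertoli markers had a median of 13.9% and a range of 4.22 to 186%. In Leydig-like cells it was at 69.0%, beside a marker median of 6.47% and a range of 3.26 to 377%. Both values lay above the marker medians and within the ranges. The top of each range came from a marker that was higher there than in Sertoli-like cells, so lying within it says little. In myeloid-like cells it was at 15.5%, beside a marker median of 12.3%. In WT, Kitl was at 247 CPM (198 to 304) in Sertoli-like cells and 246 CPM (138 to 406, from 15 UMIs) in Leydig-like cells. The WT Leydig-like level was 99.7% of the Sertoli-like level, beside a marker median of 0.616% (0 to 34.5).

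Kit, the receptor tyrosine kinase for KIT ligand, was highest in Leydig-like cells. The KO level there was 291 CPM (276 to 306), 1.45-fold above spermatogonia-like cells at 200.3 CPM (189 to 213; ratio 1.34 to 1.57). Endothelial-like cells at 159.9 CPM (118 to 212) did not differ from spermatogonia-like cells beyond counting error (1.25, 0.938 to 1.71). Early prophase-like cells were at 54.6 CPM (45.9 to 64.5), and the other classes lay between 7.74 CPM in Sertoli-like and 29.7 CPM in myoid-like cells. Leydig-like cells held 50.5% and spermatogonia-like cells 36.5% of the Kit UMIs in the KO library. A Kit UMI was found in 76.4% of Leydig-like and 56.4% of spermatogonia-like cells (40.2% and 26.4% when thinned). In Sertoli-like cells the share was 4.95% (1.89% when thinned). The 7 WT Leydig-like cells had Kit at 246 CPM (138 to 406). Kit in endothelial-like cells was 55.0% of the Leydig-like level, where the 12 Leydig markers had a median of 14.96% and a range of 6.19 to 24.5%.

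UMIs of both Kitl and Kit were found in 425 of 732 Leydig-like cells (58.1%, 54.4 to 61.7), where the single shares were 74.5% and 76.4%. A share of cells with both genes depends on depth, and no background share was computed for a pair.

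Cxcl12, the chemokine ligand of CXCR4, was concentrated in 3 interstitial classes. It was at 363 CPM (298 to 438) in endothelial-like, 254 CPM (228 to 281) in stromal-like and 219 CPM (206 to 232) in Leydig-like cells. Endothelial-like cells exceeded stromal-like cells 1.43-fold (1.14 to 1.78), and stromal-like exceeded Leydig-like cells 1.16-fold (1.03 to 1.31). Below them the level dropped 14.7-fold (5.74 to 54.2) to 14.9 CPM in myoid-like cells (4 UMIs), and to 3.05 CPM (1.99 to 4.47) in Sertoli-like cells. Leydig-like cells held 66.3% and stromal-like cells 21.4% of its UMIs. A Cxcl12 UMI was found in 65.0% of Leydig-like cells and 37.9% of stromal-like cells (33.0% and 39.0% when thinned), against 1.69% (0.585% when thinned) of early prophase-like cells.

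Cxcr4, the receptor, was highest in myeloid-like cells at 75.2 CPM (59.5 to 93.7), 2.82-fold above endothelial-like cells (1.36 to 6.76) at 26.7 CPM (8 UMIs). Sertoli-like cells followed at 14.7 CPM (12.2 to 17.5), not beyond counting error below endothelial-like cells, and by their number held 47.0% of the Cxcr4 UMIs. This was 6.61-fold (3.65 to 13.1) above spermatogonia-like cells, which were at 2.22 CPM (1.15 to 3.88, from 12 UMIs). WT Sertoli-like cells were at 16.8 CPM (6.18 to 36.6, from 6 UMIs). The Cxcr4 level of KO Sertoli-like cells was 19.5% of that of myeloid-like cells, while 17 myeloid markers in the same cells had a median of 0.225% and a highest value of 9.35%. A Cxcr4 UMI was found in 16.7% of myeloid-like and 10.5% of Sertoli-like cells (14.9% and 3.78% when thinned), and in 1.33% of spermatogonia-like cells (0.451% when thinned). No KO germ sub-cluster exceeded 3.83 CPM of Cxcr4, from 4 or fewer UMIs each, so its presence in spermatogonia could not be told from background at this depth.

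**Figure D3:**
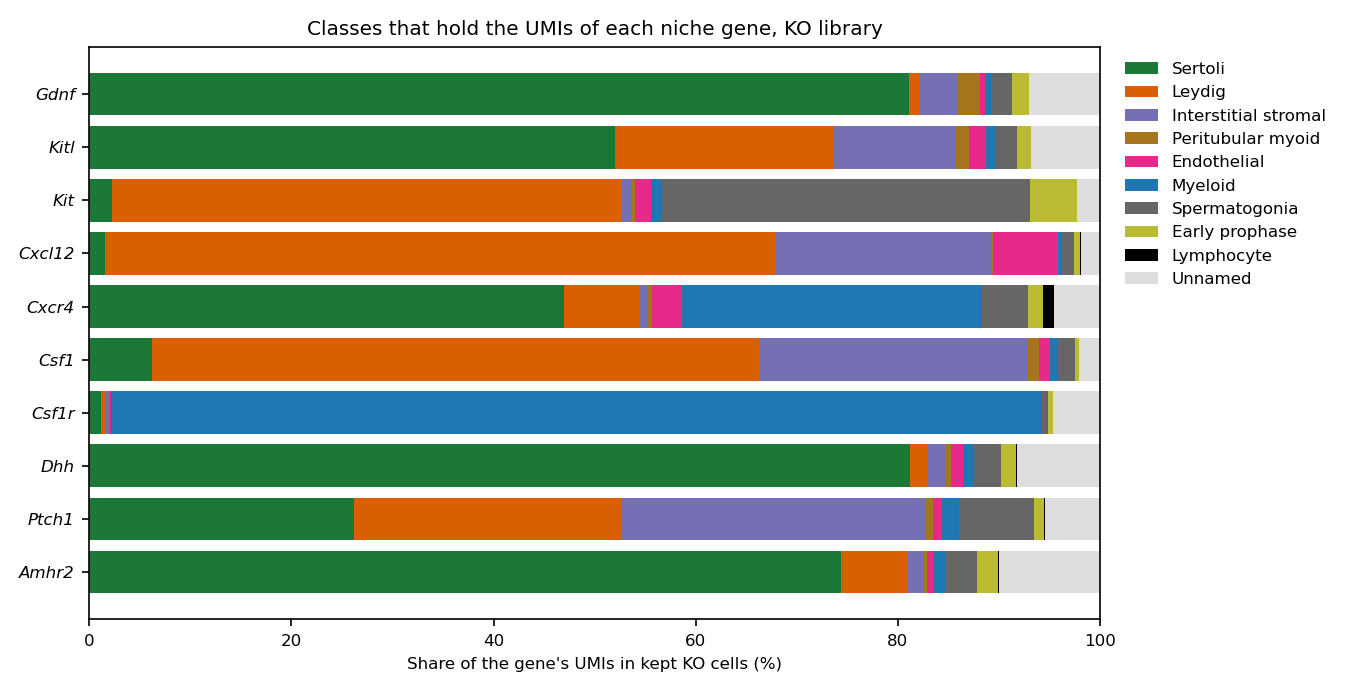
Each bar divides the UMIs of 1 gene in kept KO cells among the classes that hold them, in percent. Sertoli-like cells (green) hold most Gdnf, Dhh and Amhr2 and 47.0% of Cxcr4, Leydig-like cells (orange) hold most Cxcl12 and Csf1, and myeloid-like cells (blue) hold 92.1% of Csf1r.

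Csf1, the macrophage growth factor, shared its interstitial sources with Cxcl12. It was at 254 CPM (229 to 282) in stromal-like and 159.7 CPM (149 to 171) in Leydig-like cells, a 1.59-fold difference (1.40 to 1.81). Leydig-like cells held 60.1% and stromal-like cells 26.6% of its UMIs. Myoid-like cells were next at 55.7 CPM (31.2 to 91.9), and germ cell classes were lowest, at 4.07 CPM and 2.37 CPM. A Csf1 UMI was found in 55.3% of Leydig-like and 37.6% of stromal-like cells (25% and 38.5% when thinned), and in 1.13% (0.390% when thinned) of early prophase-like cells. Csf1 and Cxcl12 were found together in 40.6% (37.0 to 44.2) of Leydig-like cells and 14.3% (11.7 to 17.1) of stromal-like cells. These shares were not thinned, and the classes had median depths of 7187 and 2068 UMIs. No background share was computed for this pair either.

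Csf1r was the most class-restricted of the 10 genes. Myeloid-like cells were at 1967 CPM (1883 to 2054), 148-fold (57.6 to 542) above the endothelial-like class, whose 4 UMIs came from 1 cell. A Csf1r UMI was found in 89.0% of myeloid-like cells (92.0% when thinned) and in 2.16% of Sertoli-like cells (0.541% when thinned). The KO myeloid-like class joined 2 clusters. The larger, with 270 cells led by the coagulation factor gene F13a1, had Csf1r at 2292 CPM and Cxcr4 at 88.3 CPM. The smaller, with 113 cells led by the antigen presentation gene Cd74, had 765 CPM and 26.9 CPM. The ratios were 2.99 (2.56 to 3.52) for Csf1r and 3.29 (1.44 to 9.25) for Cxcr4. All 7 WT myeloid-like cells lay in the Cd74-led cluster, with Csf1r at 853 CPM (441 to 1489, from 12 UMIs) beside the 765 CPM of its KO cells. Summed myeloid markers were at 26424 CPM in the larger and 46531 CPM in the smaller cluster, and summed Sertoli markers at 3709 and 4234 CPM; their part in the differences was not tested.

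Ptch1, the hedgehog receptor, was highest in stromal-like cells at 271 CPM (244 to 299), 4.11-fold (3.54 to 4.77) above Leydig-like cells at 65.8 CPM (59.0 to 73.2). Endothelial-like, Sertoli-like and myoid-like cells followed at 39.98, 39.4 and 33.4 CPM, and did not differ beyond counting error. Its UMIs were spread over stromal-like (30.2%), Leydig-like (26.4%) and Sertoli-like cells (26.2%). A Ptch1 UMI was found in 35.4% of stromal-like, 31.3% of Leydig-like and 23.1% of Sertoli-like cells (36.6%, 11.6% and 6.94% when thinned), against 2.26% (0.390% when thinned) of early prophase-like cells. WT Sertoli-like cells were at 28.1 CPM (13.5 to 51.6). Ptch1 in KO Sertoli-like cells was 14.6% of the stromal-like level, while 14 stromal markers there had a median of 0.600% and a range of 0 to 118%. The Sertoli-like class, highest in Dhh, thus also held Ptch1 at a level above the median share of stromal transcripts in it.

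Sertoli-like cells of the KO library joined a main cluster of 1056 cells and a small cluster of 54 cells led by the protease inhibitor gene Wfdc18. Amhr2 was 2.10-fold higher (1.89 to 2.34) in the main cluster, at 1370.1 against 653 CPM. Dhh was 1.62-fold higher (1.22 to 2.19), at 151 against 93.02 CPM. Kitl was lower in the main cluster, at 339 against 493 CPM (ratio 0.688, 0.607 to 0.784). Kit was at 4.51 CPM in the main cluster and 55.8 CPM in the small one, with a UMI in 3.13% and 40.7% of cells. Summed Leydig markers were at 634 CPM in the main and 1708 CPM in the small cluster, and summed Sertoli markers at 24850.1 and 18396 CPM. Summed markers of differentiating spermatogonia were at 50.3 and 240 CPM. Those of early prophase, myeloid and endothelial cells were lower in the small cluster. The part of these in the differences was not tested.

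Germ cells allowed the libraries to be compared, since spermatogonia-like cells (165 WT and 902 KO, median depths 6510 and 5525 UMIs) and early prophase-like cells (88 WT and 532 KO, 4943 and 4147 UMIs) were present in both. The comparison is of 2 libraries. The 12 elongating spermatid markers summed to 12221 CPM (WT) and 115 CPM (KO) in spermatogonia-like cells. In early prophase-like cells they summed to 13202 and 181 CPM. The part of spermatid transcripts in the comparisons below, and in the shares over all genes, was not tested. Kit, the receptor that marks differentiating spermatogonia, had 237 WT UMIs in spermatogonia-like cells, a level of 218 CPM (191 to 247), and 1083 KO UMIs, a level of 200.3 CPM (189 to 213), a ratio of KO to WT of 0.921 (0.799 to 1.06). In early prophase-like cells the WT level was 76.98 CPM (53.9 to 107) and the KO level 54.6 CPM, a ratio of 0.709 (0.489 to 1.05). Neither difference exceeded counting error. The ratio in spermatogonia-like cells moved to between 1.21 and 4.87 under 5 other cell filters or class definitions, which raised the number of WT cells called spermatogonia-like to between 302 and 976. The ratio in early prophase-like cells moved to 3.35 and 7.88 under 2 of them.

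Of 7 niche genes with at least 20 UMIs in spermatogonia-like cells of the 2 libraries, 3 were at least 2-fold higher in KO and 0 were at least 2-fold lower. Among all 13386 such genes, 7.13% were higher and 11% lower by that much. Under 4 of the other filters or class definitions above, 6 or 7 of the 7 were past 2-fold in either direction. The 3 were Kitl, Dhh and Amhr2. Kitl had 6 WT UMIs (5.51 CPM) and 121 KO UMIs (22.4 CPM), a ratio of 4.06 (1.81 to 11.3). Dhh had 3 WT UMIs (2.75 CPM) and 42 KO UMIs (7.77 CPM), and its ratio of 2.82 was within counting error (0.902 to 14.2). Amhr2 had 18 WT UMIs (16.5 CPM, 9.79 to 26.1) and 484 KO UMIs (89.5 CPM, 81.7 to 97.9), a ratio of 5.42 (3.39 to 9.22). Ptch1 was at 11.9 and 17.8 CPM (1.49, 0.830 to 2.90). Cxcl12 and Csf1 had 1 WT UMI each, with ratios of 4.23 (0.681 to 175) and 4.43 (0.717 to 183) that were within counting error. With the WT counts set to 3, as in the count of genes past 2-fold, these ratios were 1.41 and 1.48.

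All 3 are genes that were high in Sertoli-like cells, and Sertoli markers moved with them. In spermatogonia-like cells the 20 Sertoli markers summed to 282 CPM (WT) and 1893 CPM (KO). As a percent of the Sertoli-like level of the same library, their median was 1.015% (0 to 5.45) in WT and 7.80% (4.04 to 26.5) in KO. Amhr2 was at 1.11% in WT and 6.76% in KO, Kitl at 2.23% and 6.41%, and Dhh at 1.89% and 5.29%. Each of these values lay within the marker range of its library. The part of Sertoli transcripts in the differences was not tested further.

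In early prophase-like cells 4 niche genes had at least 20 UMIs. Kitl and Amhr2 were at least 2-fold higher in KO, where 12.7% of all 10705 such genes were, and 0 were at least 2-fold lower, where 10.7% of all were. Kitl had 1 WT UMI (2.14 CPM) and 77 KO UMIs (30.5 CPM), a ratio of 14.3 (2.48 to 570.1), or 4.75 with the WT count set to 3. Amhr2 had 12 WT UMIs (25.7 CPM, 13.3 to 44.8) and 311 KO UMIs (123 CPM, 110 to 138), a ratio of 4.80 (2.71 to 9.38). Dhh had 0 WT UMIs and 23 KO UMIs (9.10 CPM, 5.77 to 13.7). Against a floor of 3 WT UMIs (6.41 CPM) the KO level was at least 1.42-fold higher, and the exact lower limit of the ratio was 1.06. Summed Sertoli markers were at 453 CPM (WT) and 2376 CPM (KO), and Amhr2 was at 1.72% and 9.29% of its Sertoli-like level beside marker medians of 1.38% and 9.12%. With 10% of each library's whole profile taken off, 1 gene passed instead of 2.

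**Figure D4:**
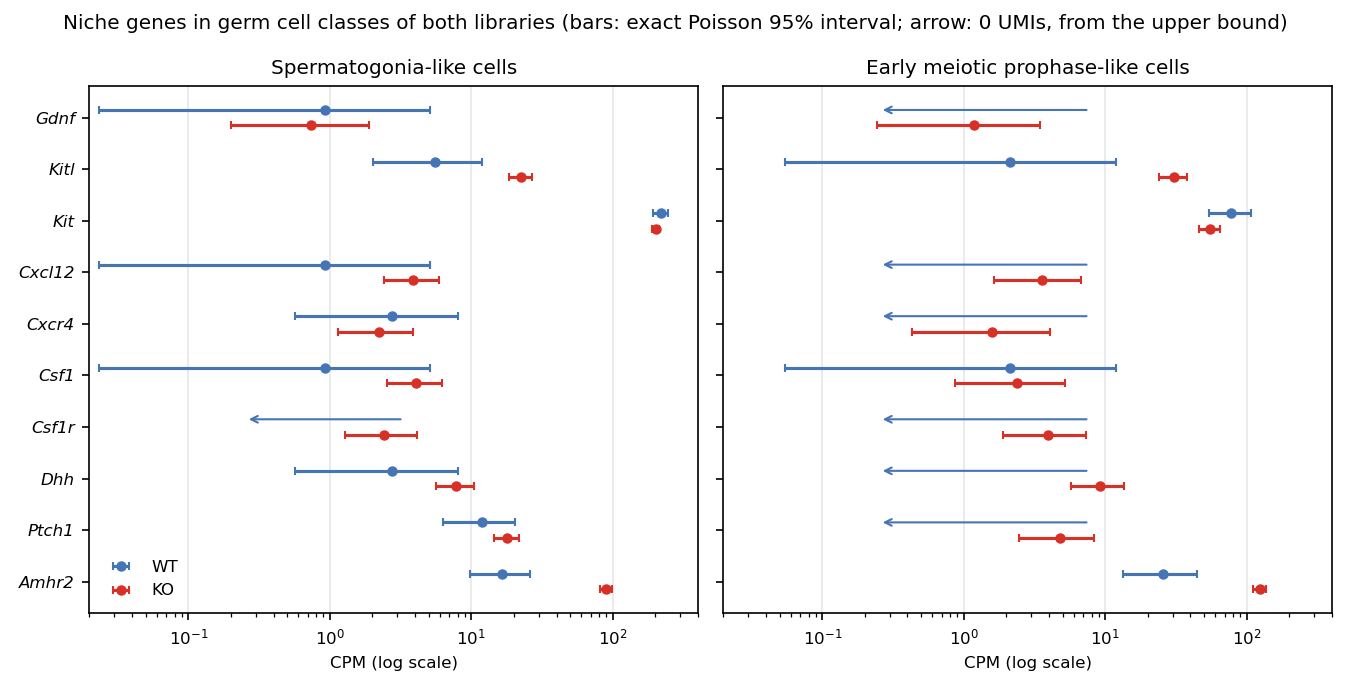
Levels of the 10 genes in CPM on log axes are plotted for spermatogonia-like (left) and early prophase-like cells (right), with WT in blue and KO in red and exact Poisson 95% intervals as bars. An arrow stands for 0 UMIs. Kit overlaps between the libraries in both panels, while Amhr2 in KO lies above WT.

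Ptch1 divided the spermatogonia-like cells of both libraries, and Kit those of the KO library only. When germ cells of each library were clustered again, 1 KO sub-cluster of 154 cells was highest in markers of undifferentiated spermatogonia. Its Gfra1 and Ret, the receptor pair for GDNF and themselves among the markers used, were at 104 CPM (86.6 to 124) and 125 CPM (105 to 146). Kit was at 52.5 CPM (40.3 to 67.3) in these cells and at 242 CPM (227 to 257) in the other 748 KO spermatogonia-like cells, a ratio of 0.217 (0.165 to 0.281). A Kit UMI was found in 22.1% and 63.5% of the cells, respectively (7.19% and 30.4% when thinned). The 4 other KO spermatogonial sub-clusters ranged from 132 to 306 CPM of Kit. The 52.5 CPM depended on where the sub-cluster ended: it ranged from 48.7 to 197 CPM over 12 other settings, and reached 197 CPM, beside 203 CPM in the other spermatogonia-like cells, when the sub-cluster took in 325 cells.

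Ptch1 had the opposite order. It was at 59.3 CPM (46.2 to 74.9, from 70 UMIs) in the KO undifferentiated sub-cluster and at 6.15 CPM (4.02 to 9.02, from 26 UMIs) in the other KO spermatogonia-like cells, a ratio of 9.64 (6.06 to 15.8). A Ptch1 UMI was found in 31.2% against 3.48% of cells (8.497% against 0.545% when thinned). In WT, the 36 cells highest in undifferentiated markers had Ptch1 at 46.3 CPM (24.7 to 79.2, from 13 UMIs). The other 129 WT spermatogonia-like cells had 0 Ptch1 UMIs, which makes the first at least 12.5-fold higher against a floor of 3 UMIs over those cells. The exact lower limit of that ratio was 8.78. Each library thus had more Ptch1, beyond counting error, in its sub-cluster highest in undifferentiated markers, although the WT one did not meet the rule for an undifferentiated name. Over the 12 other settings the KO undifferentiated value lay between 35.2 and 59.8 CPM.

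The 14 stromal markers summed to 117 CPM in the undifferentiated sub-cluster and to between 99.7 and 143 CPM in the others. Ptch1 in the undifferentiated sub-cluster was 21.9% of the stromal-like level, where the stromal markers had a median of 0.645%. That median was the highest of the 9 KO germ cell sub-clusters, the other 8 lying between 0.221% and 0.629%, with Ptch1 between 1.02% and 3.08%. It was also 150.4% of the Sertoli-like level, where the Sertoli markers had a median of 5.71%. Dhh itself was at 6.78 CPM (2.93 to 13.4) there, near the 8.05 CPM of the other KO spermatogonia-like cells. The hedgehog transducer genes Smo and Gli3 were at 13.6 CPM (7.75 to 22.0) and 43.2 CPM (32.2 to 56.8) in the same cells, beside 22.2 CPM (17.98 to 27.2) and 41.9 CPM (35.9 to 48.5) in the other KO spermatogonia-like cells.

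The most undifferentiated sub-clusters of the 2 libraries were not alike in Kit. The 36 WT cells had Kit at 246 CPM (191 to 311) and the 154 KO cells at 52.5 CPM, a ratio of KO to WT of 0.214 (0.149 to 0.305). Within WT, Kit in these 36 cells was 1.18-fold that of the other spermatogonia-like cells (0.881 to 1.58). The 36 WT cells were also lower in Gfra1 (60.6 against 104 CPM; ratio of KO to WT 1.72, 1.03 to 3.05) and Ret (39.2 against 125 CPM; 3.18, 1.72 to 6.50). They were higher in Stra8, a gene induced by retinoic acid as spermatogonia differentiate (617 against 313 CPM; 0.507, 0.422 to 0.611). They met the rule for a differentiating and not an undifferentiated name. Ptch1 in the KO and WT sub-clusters did not differ beyond counting error (1.28, 0.702 to 2.52).

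**Figure D5:**
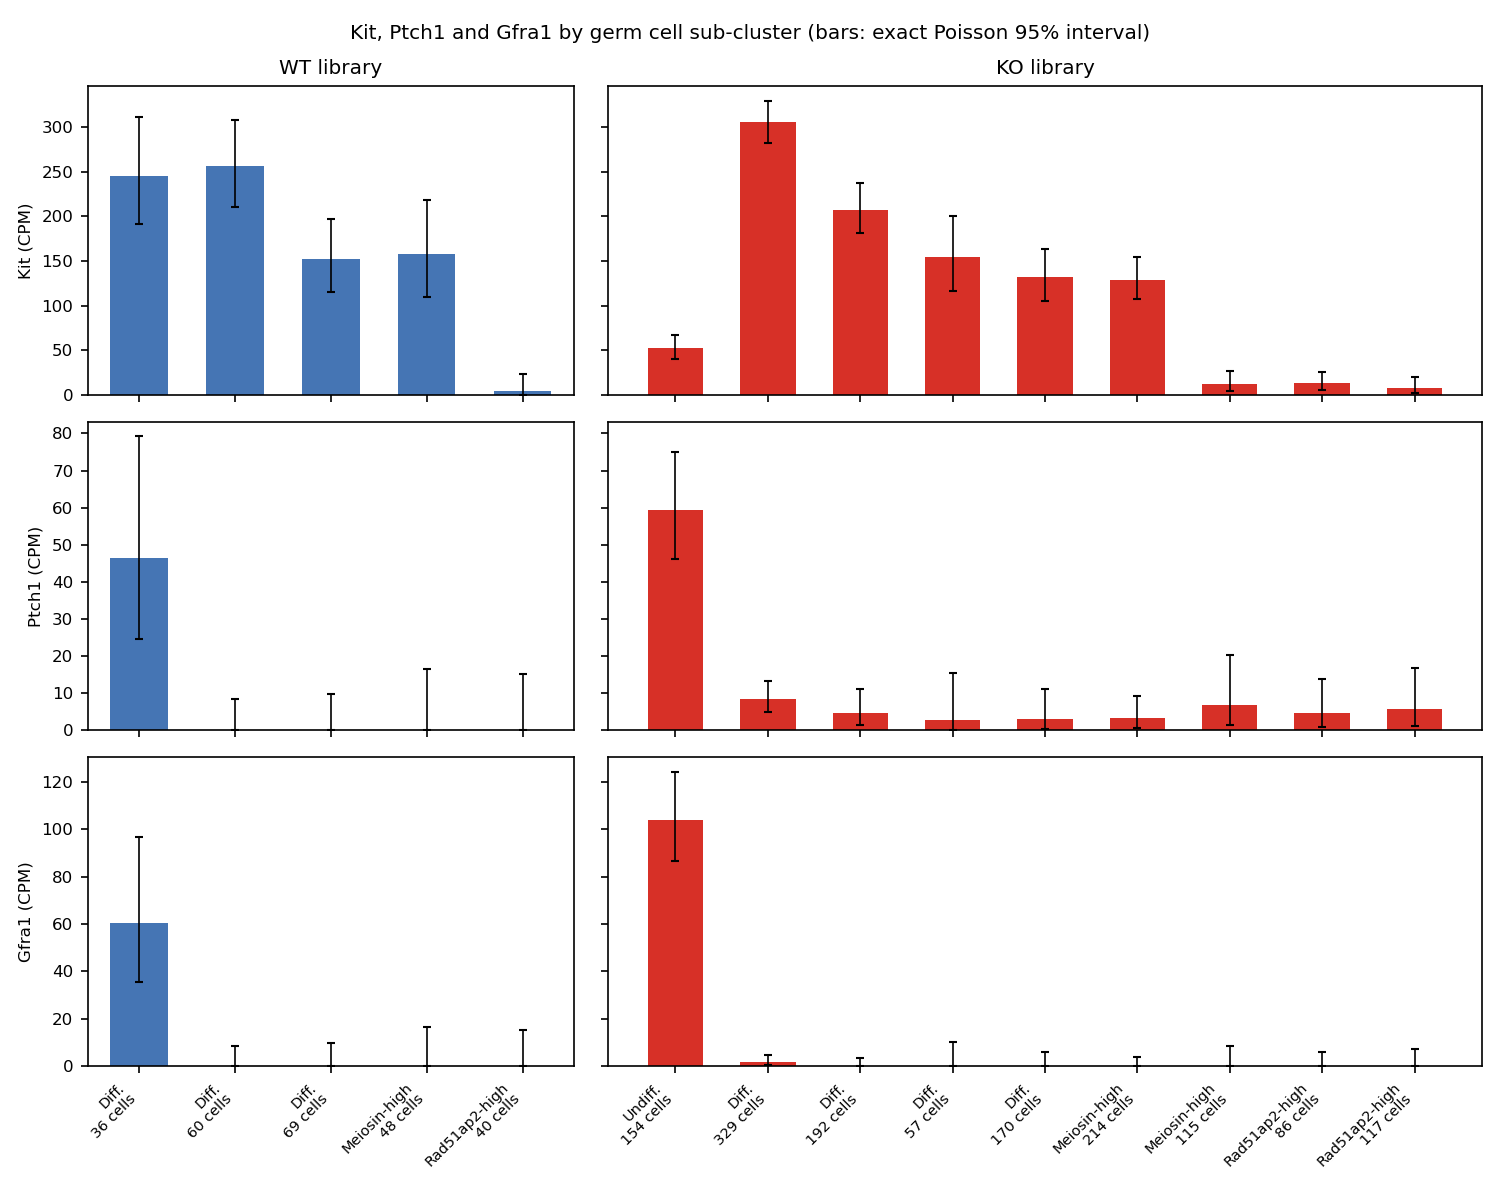
Levels of Kit, Ptch1 and Gfra1 in CPM are drawn as bars from 0 for each germ cell sub-cluster of the WT (blue) and KO (red) library, with exact Poisson 95% intervals. In KO the undifferentiated sub-cluster of 154 cells is low in Kit and high in Ptch1 and Gfra1, while in WT the sub-cluster of 36 cells is high in all 3.

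Kit was low in the later meiotic cells of both libraries. Early prophase-like cells rich in Meiosin, a partner of STRA8 at meiotic entry, had 35 Kit UMIs in WT (157 CPM, 110 to 219) and 126 in KO (91.7 CPM, 76.4 to 109), a ratio of 0.583 (0.398 to 0.874). The KO cells here included a sub-cluster of 115 cells with Kit at 11.5 CPM, which had the meiotic recombinase gene Dmc1 among its 10 leading genes. Without those 115 cells, the other 214 KO cells had Kit at 129 CPM (107 to 154). Their ratio to WT was 0.819 (0.558 to 1.23), within counting error. The 48 WT cells formed 1 sub-cluster and were not divided in this way. Cells rich in Rad51ap2, a gene of meiotic recombination, had 1 Kit UMI in WT (4.08 CPM) and 12 in KO (10.4 CPM, 5.38 to 18.2).

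The pathway partners of each pair were read from lists of genes, of which each gene with at least 20 KO UMIs was asked whether its highest class exceeded the next by 2-fold. Over all genes 19.2% did. In the GDNF list 5 of 10 genes did: Gfra1 and Ret in spermatogonia-like cells, Bcl6b in endothelial-like cells, Ncam1 in myoid-like cells (111 CPM, 75.2 to 159) and Sdc4, a heparan sulfate carrier, in Sertoli-like cells (1095 CPM). Etv5, a GDNF response factor, was highest in stromal-like cells at 85.3 CPM (70.8 to 102). In the KO undifferentiated sub-cluster, for which it was among the markers used, Etv5 was at 63.5 CPM (50.0 to 79.6). In the KIT list 4 of 13 did: Ptpn6 in myeloid-like, Sos1 and Src in Sertoli-like and Socs1 in stromal-like cells. The kinase gene Fyn was at 387 CPM in Sertoli-like cells, 1.53-fold above the next class.

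In the CXCL12 list 4 of 7 genes passed. The decoy receptor gene Ackr3 was at 99.9 CPM (67.4 to 143) in endothelial-like cells, Dpp4 was also highest there, and Cxcr4 and Arrb2 (170.4 CPM) were highest in myeloid-like cells. The G protein gene Gnai2 was at 982 CPM in myeloid-like cells, only 1.12-fold above the next class. In the CSF1 list 4 of 8 passed: Csf1r, Csf2ra and the myeloid transcription factor gene Spi1 (304 CPM, 271 to 339) in myeloid-like cells, and Il34, the other CSF1R ligand, in myoid-like cells (89.2 CPM, 57.1 to 133, from 24 UMIs). The 2 ligands of CSF1R thus had their highest levels in different classes.

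The Hedgehog list had 9 of 15 genes past 2-fold. Among them, besides Dhh in Sertoli-like cells, Ptch1, Smo (70.6 CPM), Gli1 (35.0 CPM), Boc and Gas1 (199.9 CPM) were all highest in stromal-like cells. Ptch1 and Gli1 are known targets of the pathway. Gli2 was highest in myoid-like cells at 22.3 CPM, beside 9.79 CPM in stromal-like cells. It passed over the endothelial-like class, where Gli2 was at 0 and its count was set to 3. Gli3 was highest in spermatogonia-like cells (42.2 CPM, 36.9 to 48.0). Of the AMH and BMP list, Amhr2 alone of 13 genes passed. Amh, the AMHR2 ligand, was low at 11.3 CPM (9.12 to 13.8) in Sertoli-like cells. This was 1.011-fold above the next class, myoid-like, when counts under 3 were set to 3. As counted, Amh in myoid-like cells was at 3.72 CPM. The type I receptor gene Bmpr1a was highest in myoid-like cells at 137 CPM (96.8 to 189). Id3 was at 1704 CPM in stromal-like and Id2 at 881 CPM in myoid-like cells.

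Of 43 other niche genes 23 passed, and the 3 with the highest levels were Igf1 (1781 CPM) and Pdgfra (1528 CPM) in stromal-like cells and Inha (1257 CPM) in Sertoli-like cells, all of them markers that named those classes. The median ratio of highest to next class was 1.71 in the GDNF, 1.45 in the KIT, 2.61 in the CXCL12, 3.08 in the CSF1, 2.23 in the Hedgehog, 1.26 in the AMH and BMP list and 2.05 in the other niche genes, beside 1.25 over all genes. The count floor lowers the ratio of genes with few counts, in the lists and over all genes. Several of these genes, among them Gfra1, Ret, Bcl6b and Amh, are also class markers.

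In spermatogonia-like cells, the GDNF list had 4 of 8 genes at least 2-fold higher in KO and 0 lower, with a median log2 ratio of 1.03 beside 0.13 over all genes. The KIT list had 3 of 12 higher, the AMH and BMP list 3 of 12 higher and 1 lower, the Hedgehog list 1 of 11 higher and 1 lower, and the CXCL12 and CSF1 lists 0 of 4 and 0 of 3 in either direction. Of the other niche genes 3 of 26 were higher and 0 lower. The lists other than GDNF had median log2 ratios from 0.15 (Hedgehog) to 0.56 (CSF1). Over all genes 7.13% were higher and 11% lower. The KO class of 902 cells held 154 cells of the undifferentiated sub-cluster. The WT class of 165 cells held 0 cells so named, but 36 cells of its sub-cluster highest in undifferentiated markers. These markers summed to 1712 CPM in the 154 KO cells and 1080 CPM in the 36 WT cells. Gfra1, Ret, Etv5 and Bcl6b of the GDNF list are among these markers. The count for that list is thus not independent of how the cells were named. The part of these cells in the list counts was not tested. In early prophase-like cells the KIT list had 2 of 11 higher, the Hedgehog list 3 of 7 higher and 1 lower, and the GDNF list 2 of 3 higher. The CXCL12 list had 1 of 3 higher, the CSF1 list 0 of 2, the AMH and BMP list 1 of 5 and the other niche genes 3 of 14, with 0 lower in each. Over all genes 12.7% were higher and 10.7% lower. The median log2 ratio there was 1.03 in the GDNF, 0.89 in the Hedgehog, 0.74 in the KIT and 0.70 in the other niche list. It was 0.53 in the AMH and BMP, 0.46 in the CXCL12 and -0.03 in the CSF1 list, and 0.20 over all genes. Summed Sertoli markers in these cells were at 453 CPM (WT) and 2376 CPM (KO), and their part was not tested.

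Genes with the most similar pattern were found over 15 KO clusters of at least 50 cells, by Pearson's r of log2(CPM + 10) against 12875 genes. The clusters share 1 library, and some share a class. Csf1r was most like Lyz1 (r = 0.996), Ifi204 and Fcgr3, all genes of myeloid cells. Dhh was most like Slc47a2 (0.969), the Sertoli marker Wt1 (0.967) and Sema6c, and Amhr2 most like Impa1 (0.973), Zdhhc2 and Sat2. Ptch1 was most like Mme (0.893), Gas1 (0.885), a hedgehog co-receptor, and Pdgfra (0.881). Cxcl12 was most like Heph (0.971), Gulp1 and Pcdhgc3, and Csf1 most like Tgfbr3 (0.972), Htra1 and Itih5. Kitl was most like Arid5b (0.963), Snhg18 and Sparc, Cxcr4 most like Tnfaip2 (0.934), Vsir and Lair1, and Gdnf most like Epg5 (0.945), Dctn6 and Crtc3. Kit, split between Leydig-like and spermatogonia-like cells, had the lowest best match, with Sdc1 (0.822), Snhg11 and Fdft1.

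Over all barcodes of each library, before any filter, each of the 10 genes had a higher CPM in KO. The ratios of KO to WT ran from 9.39 (8.10 to 10.9) for Dhh, at 6.103 and 57.3 CPM, to 162 (101 to 278) for Csf1r, at 0.514 and 83.1 CPM. In WT the 4058 spermatid-like cells held most of the UMIs, and the niche genes were low there, from 0.0589 CPM for Cxcl12 to 20.4 CPM for Amhr2. The share of somatic cells and the level per class cannot be told apart in these library totals. Within Sertoli-like cells, the only somatic class with more than 7 WT cells, Amhr2 was at 1489.7 (WT) and 1325 CPM (KO), Dhh at 146 and 147 CPM, Cxcr4 at 16.8 and 14.7 CPM, and Kitl at 247 and 349 CPM. The WT and KO intervals of Amhr2 and of Kitl did not overlap, while those of Dhh, Cxcr4, Gdnf and Ptch1 did. Elongating spermatid markers summed to 14038 CPM (WT) and 83.4 CPM (KO) in Sertoli-like cells, and their part was not tested.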

How the data were processed

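Whole testes of WT and RAD21L KO mice gave 1 10x Chromium single-cell library each. The deposited matrices hold UMI counts per gene and barcode, which the authors made with Cell Ranger 6.1.2 on GRCm39, per the submitters' processing notes (Seurat 4.3 is listed there too). Nothing was normalised in these counts.

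Cells with at least 500 genes and at most 20% mitochondrial UMIs were kept (8 WT and 709 KO barcodes had too few genes, 7 and 28 too many mitochondrial UMIs). Scrublet marked 1 of 5400 WT cells, under the 0.5% taken as a working call, so none was removed, and 126 of 6381 KO cells (1.97%), which were removed. Doublets were thus treated unequally. Cells were clustered jointly with scanpy 1.11.5 (2000 variable genes per library, 30 principal components, 15 neighbours, Leiden resolution 1), leaving the 10 genes out of the variable genes and the markers. Clusters whose median UMIs, multiplied by 3, fell below their library's median stayed unnamed.

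UMIs were summed per class. Intervals are exact Poisson (levels), Clopper-Pearson (shares) and conditional binomial (ratios). They cover counting error and compare 2 libraries, not genotypes. Counts of genes past 2-fold, and list medians, used a minimum of 20 UMIs and set counts under 3 to 3, while ratios printed with an interval are of the counts as they stand. Promoter windows came from a RefSeq table on GRCm38.p6, not the build of the counts, and were matched by symbol. Entries on a single chromosome were left out for the 10 genes but not for the background windows, and 9 of 10 genes had a window kept. The scripts' calculations were tested on simulated data.

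The 10 genes and the lists were chosen with earlier results of these data known. The text names the 10 genes, of each list the 3 genes with the highest CPM, and the 3 genes most like each of the 10. Other genes named from a list, those past 2-fold and known partners, were chosen after their values were seen. The re-clustering of germ cells within each library, the rule for clusters of mixed lineage, the shared-neighbour graph, scoring within the majority library, and the split by Meiosin and Rad51ap2 were also chosen after seeing the data. One gene counted in a list is not reported here. Alternatives covered filters, doublets, resolution, the genes clustered, gating, scaling, free RNA, thresholds and fold.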

Additional observations from a re-analysis of the deposited data

How the results depend on the processing

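Over 11 other settings, 9 of the 10 genes kept their highest class in each. Gdnf moved to erythroid-like cells when each cell was gated by its own markers. With the endothelial-like class left out, an alternative added after seeing the data like the other germ cell resolutions, Cxcl12 was highest in stromal-like cells. The number of genes past 2-fold over the next class was 5, and 3 under a 3-fold threshold (9.53% of all genes) and 3 when each cell was gated (11.7%). List genes past 2-fold, 45 without the 10, numbered 36 to 53.

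The ratio of Kit between libraries in spermatogonia-like cells (0.921) was 4.87 with a minimum of 200 genes, 3.42 with at least 1000 genes and at most 10% mitochondrial UMIs, 3.42 without the top 5% of doublet scores, 1.92 at clustering resolution 2 and 1.21 when each cell was gated. WT spermatogonia-like cells then numbered 313, 319, 302, 976 and 487 instead of 165, so other cells entered the class. The other 8 settings gave 0.861 to 1.02. For early prophase-like cells (0.709) the ratio was 3.35 with a minimum of 200 genes and 7.88 when gated. The number of genes past 2-fold between libraries in spermatogonia-like cells (3) was 7, 7, 7 and 6 under the first 4 of these settings. In early prophase-like cells (2) it was 4 with a minimum of 200 genes and 1 with 10% free RNA taken off. The cause of these shifts was not tested beyond the cell numbers.

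Low counts limit Gdnf and Cxcr4 in every class but 1 or 2, and all WT somatic values. No paired analysis was possible because each genotype had 1 library.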
